A study of Bos taurus with 10 samples.

Results

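The right ventricles of 5 control calves, numbered 176, 177, 180, 181 and 195, were described gene by gene and set against no other group. They are the control arm of a series of 10 male Holstein calves in which the other 5 were kept in hypoxia. The control calves lived in ambient normoxia at an altitude of 1525 m for 14 days, from a start at 3 to 7 days of age. Each calf gave 1 array, made from snap frozen right ventricle, so every value is an average over all of its cell types, and fewer cells of a type and less RNA per cell cannot be told apart. The samples were the 5 columns labelled as controls, and the described features were 9155 genes, each represented by its brightest probe set.

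The right ventricle pumps blood through the lungs. After birth its wall adapts as pulmonary pressure falls, while heart muscle replaces fetal isoforms of contractile and metabolic proteins with adult ones and turns from glycolysis and lactate towards fatty acids. Isoforms are closely related proteins from different genes, so the member of a family that gives the signal is a description of the muscle's state.

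Values are log2 intensities from RMA, the authors' summary over the probes of a set, and means carry the SD over the 5 calves. The 5 arrays had medians between 5.48 and 5.53, and Pearson's r between pairs of arrays, taken over all described probe sets, was 0.983 to 0.991. A probe set's signal depends on how well its probes bind as well as on the transcript, so levels of different genes are given as brighter or dimmer signal and no fold between genes is taken. The size of that uncertainty was read from the genes with several probe sets. Over 2913 such genes the brightest and the dimmest probe set of the same gene differed by a median of 2.0. The SD over calves also holds the error between arrays, because each calf had a single array.

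A bound for signal that a ventricle should not give was taken from 51 measured genes of other organs, such as liver, pancreas, pituitary, retina and mammary gland. Their median was 4.03 and their 90th percentile was 7.94, and a gene brighter than that is called above the off-tissue range. Over the 1106 genes with several probe sets above it, the distance between the brightest and the dimmest was larger, with a median of 3.33. By this bound 3340 of the 9155 genes, 36.5%, were above the range. The count was 6290 with the 75th percentile as the bound and 67 with the brightest of the 51 genes, so it depends on the bound. It was 5676 when the probe sets of a gene were averaged. Counts of list or family members above the range are to be read beside the 36.5% of all genes. The brightest of the 51 was POMC, the precursor of pituitary hormones, at 13.15 ± 0.12, with a second probe set of the same symbol at 8.91. ALB, the liver's serum albumin, followed at 9.33 ± 0.44 and PRL, the pituitary hormone prolactin, at 9.13 ± 0.30. These symbols are printed as the platform annotation gives them.

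Contractile, ribosomal and mitochondrial genes gave the brightest signal in these ventricles. The brightest 6 genes were TNNI3, TNNC1, MYH7, MYL3, MYL2 and ACTC1, which together encode parts of the thick and thin filaments of the sarcomere, the contractile unit of muscle. TNNI3, cardiac troponin I, the inhibitory subunit that holds the thin filament off in the absence of calcium, measured 14.20, 14.21, 14.23, 14.22 and 14.20 in calves 176, 177, 180, 181 and 195 (14.21 ± 0.01). The 5 calves were nearly equal for this gene, the brightest of all 9155. Its values lay close to the highest on any of the arrays, 14.30, where RMA can compress differences. Whether compression bears on this equality, or on the order of the brightest genes, was not tested. TNNC1, the calcium-binding troponin of slow and cardiac muscle, measured 14.10, 14.21, 14.27, 14.18 and 14.18 (14.18 ± 0.06). MYH7, the slow beta myosin heavy chain, measured 14.00, 14.30, 14.21, 14.15 and 14.24 (14.18 ± 0.11). Calf 176 was the lowest of the 5 for both genes.

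**Figure D1:**
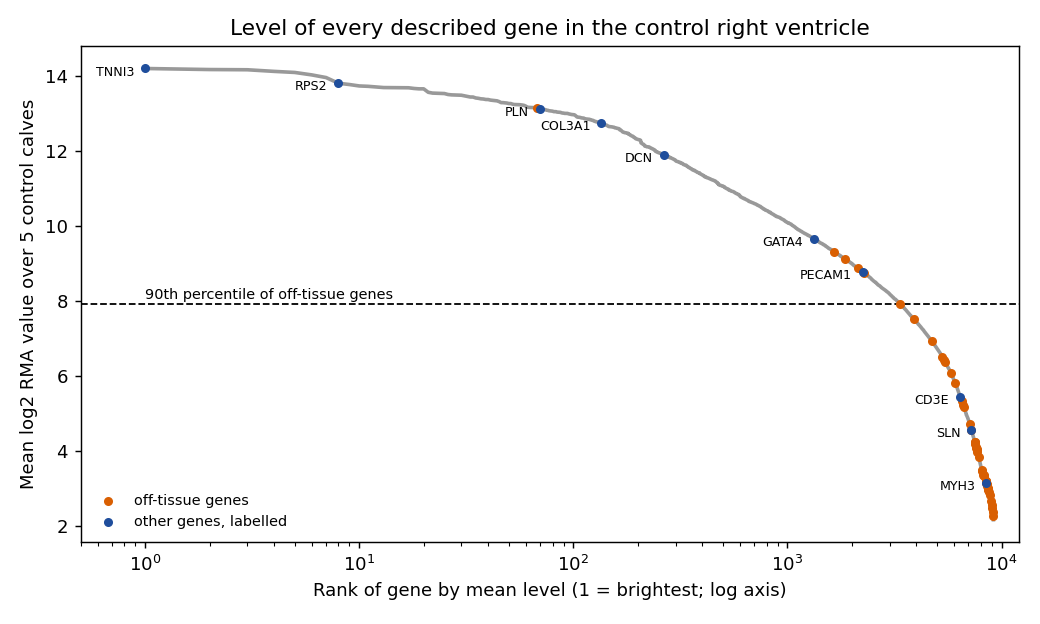
Mean log2 signal over the 5 control calves of each of the 9155 genes (y axis) against its rank from brightest to dimmest (x axis, log scale), with selected genes labelled. TNNI3 leads at 14.21, and the 90th percentile of the off-tissue genes, 7.94, marks where 3340 genes lie above.

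The rest of the leading 20 came from few processes. MB, the oxygen-binding myoglobin of muscle, was 13.97 ± 0.06. SLC25A4, the heart and muscle isoform of the mitochondrial ADP/ATP carrier, was 13.75 ± 0.06, and ATP5F1A, a subunit of ATP synthase, was 13.70 ± 0.06. TCAP, the Z-disc cap of titin, was 13.74 ± 0.15. LDHB, the heart-type lactate dehydrogenase, was 13.72 ± 0.07, MDH2, the malate dehydrogenase of the mitochondrial matrix, was 13.70 ± 0.12, and ATP2A2, which pumps calcium back into the sarcoplasmic reticulum, was 13.70 ± 0.10. Genes of protein synthesis made up the remainder with COX4I1, a subunit of cytochrome oxidase, at 13.67 ± 0.07: RPS2 at 13.82 ± 0.04, the elongation factor EEF1A1 at 13.78 ± 0.05, and RPL10, RPL35, RPS3A and RPS26.

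Among the 100 brightest genes, all at 12.98 or above, the cytosolic ribosome list held 38, which was 63.3% of its 60 measured genes. The 5 complexes of oxidative phosphorylation, which make ATP from electron transport, held 21, or 27.6% of 76. The sarcomere list held 8 of its 11 measured genes, 72.7%, and the Z-disc and intermediate filament list 5 of 11, 45.5%. The 43 measured genes of the extracellular matrix and the 26 of the proteasome held 0. For comparison, 100 genes are 1.09% of those described. CHGA, the granule protein of endocrine cells, at 13.17 ± 0.09 and POMC were among the 21 of the 100 outside the 11 pathway groups counted here, although POMC is in the off-tissue list. The 21 also held genes of the same processes that the lists lack, such as the ribosomal RPL13A at 13.54 and ATP5IF1, the inhibitor of ATP synthase, at 13.50. CHGA and RPL13A were chosen for mention after their values were seen, and the second probe set of CHGA read 5.14.

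Members of a family differed strongly in signal. Families of related genes were listed, and 55 of 57 had at least 2 measured members. Of their 286 members 215 were measured and 113 of these were above the range. In 52 of them the leading member was above every other member in each of the 5 calves. In 40 every probe set of the leader was above every probe set of the others. A leader with only 1 probe set, such as TNNI3, meets this by construction, so the count does not measure agreement between probe sets. In 26 the leader exceeded the second member by more than 2.0, the median distance between probe sets of 1 gene, and in 29 it did not, so in those the order can rest on probe binding. Only 15 leaders exceeded the second member by more than 3.33, the same distance for genes above the range. The leader was itself not above the range in 4 families, among them the PPAR receptors.

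Cardiac isoforms led the actins, myosin heavy and light chains and troponins, while the tropomyosins were led by TPM2 and not by TPM1, the main tropomyosin of heart muscle. Of the actins, ACTC1, the cardiac alpha actin, was 14.04 ± 0.07. The cytoplasmic actins ACTG1 and ACTB read 12.77 ± 0.34 and 12.50 ± 0.26, and ACTA2 of smooth muscle 9.02 ± 0.69. ACTA1, the skeletal alpha actin that hearts express before and around birth, read 11.90, 8.54, 11.74, 11.53 and 12.82 in calves 176, 177, 180, 181 and 195 (11.31 ± 1.62). Calf 177 was far below the other 4, and ACTA1 was among the most variable genes of the ventricle. The actins are closely related in sequence, so probes of one may also bind another.

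MYH7 was brighter than every other myosin heavy chain measured. MYH11 of smooth muscle was 8.09 ± 0.79, MYH10 was 5.61, and MYH9, MYH8, MYH3 and MYH1, which cover nonmuscle, perinatal, embryonic and fast skeletal forms, lay between 2.76 and 3.51. The 3 probe sets of MYH7 read 14.18, 10.30 and 3.62, so a single dim probe set does not show that a gene is silent. MYH6, the alpha heavy chain, had no probe set that carried that symbol alone and was not analysed here.

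Light chains and troponins of the ventricle were brighter than those of their atrial and skeletal relatives that were measured. MYL3 and MYL2, the essential and regulatory light chains of the ventricle, were 14.14 ± 0.04 and 14.11 ± 0.09, while MYL4, the atrial and fetal essential chain, was 6.89 ± 0.65. TNNT2, cardiac troponin T, was 13.02 ± 0.15. TNNT1, the slow skeletal form, was 10.79 ± 0.49, brighter than TNNT3, the fast skeletal form, at 4.67 ± 0.56. The fast skeletal troponins TNNI2 and TNNC2 were 3.94 and 6.14. TNNI1, the slow skeletal and fetal troponin I, and MYL7, the atrial regulatory chain, had no probe set that carried those symbols alone. Neither was analysed here. Tropomyosins were ordered TPM2 11.94 ± 0.37, TPM3 10.75, TPM4 9.89 and TPM1 9.21 ± 0.35, with TPM1's second probe set at 5.05. MYBPC3, the cardiac myosin-binding protein C, was 12.31 ± 0.19.

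In 3 families the leader was not above all others in each calf. TCAP read 13.62, 13.89, 13.66, 13.91 and 13.61 in calves 176, 177, 180, 181 and 195, and ANKRD1, a stress-responsive Z-disc protein, 13.52, 13.57, 13.31, 13.57 and 13.79. The order of these was reversed in calf 195. CRYAB and HSPB1, small heat shock proteins, were close at 13.24 ± 0.21 and 13.09 ± 0.17. NPPA, atrial natriuretic peptide, read 8.88, 8.84, 10.47, 7.00 and 8.51 (8.74 ± 1.24), and NPR2, a natriuretic peptide receptor, 7.83 ± 0.24. NPPA was highest in calf 180 and lowest in calf 181.

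**Figure D2:**
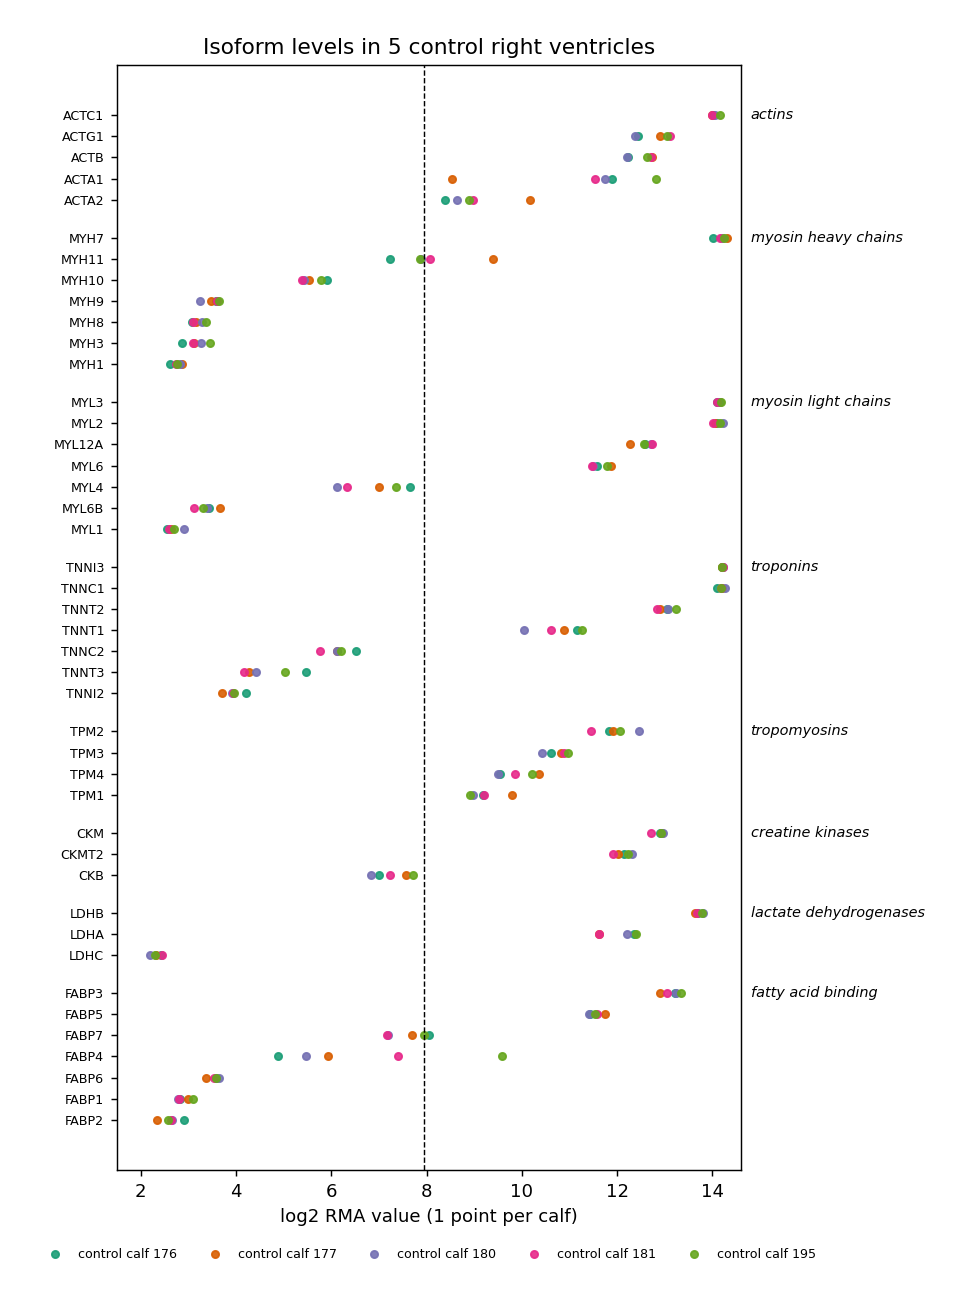
Log2 signal of the members of selected gene families in the control calves, with 1 coloured point per calf for each gene and a dashed line at the off-tissue bound of 7.94. ACTC1 (14.04), MYH7 (14.18) and TNNI3 (14.21) lead their families, and ACTA1 spreads from 8.54 to 12.82 over the calves.

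Several families of calcium handling and metabolism were also led by muscle or heart isoforms. The calcium handling list had 4 of 9 measured genes above the range, against 36.5% of all genes, and its median was 6.53. The ryanodine receptors RYR1, RYR2 and RYR3 had no probe set that carried those symbols alone. ATP2A2 was 13.70 ± 0.10, against 7.12 for ATP2B1, a plasma membrane pump, and 3.36 for ATP2A1, the fast skeletal pump. The 4 probe sets of ATP2A2 read 13.70, 13.58, 8.89 and 7.56. PLN, phospholamban, which restrains ATP2A2, was 13.14 ± 0.25, and SLN, a related regulator of atrium and skeletal muscle, 4.57 ± 0.42. PLN was 12.71 in calf 195 and 13.18 to 13.30 in the other 4. GJA1, the gap junction protein connexin 43, was 12.86 ± 0.11 and GJC1 4.36.

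CKM, muscle creatine kinase, was 12.89 ± 0.11, CKMT2, the mitochondrial form, 12.12 and CKB, the brain form, 7.27. LDHB led LDHA, 12.04 ± 0.39, and LDHC of testis, 2.33. The glycolytic enzymes ENO3 and PGAM2, muscle forms, read 12.44 ± 0.46 and 12.20, against 10.94 for ENO1 and 10.42 for PGAM1. PFKM, muscle phosphofructokinase, was 12.52, PFKP 8.97 and PFKL 8.19. Muscle forms of cytochrome oxidase subunits were brighter than their general forms, with COX6A2 at 11.88 and COX6A1 at 10.28, COX7A1 at 13.28 and COX7A2 at 12.12, and COX8B at 12.75 and COX8A at 11.47. The second probe set of COX8B read 10.54.

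Fatty acid and glucose genes were both bright. FABP3, the heart fatty acid-binding protein, read 13.22, 12.90, 13.24, 13.04 and 13.35 (13.15 ± 0.18), and FABP5 11.54. The fatty acid oxidation list had 20 of 21 measured genes above the range, with a median of 10.75, and LPL, which frees fatty acids from lipoproteins, at 12.66 ± 0.24 and ACADM, medium-chain acyl-CoA dehydrogenase, at 12.62 ± 0.28. Glycolysis had 16 of 17 above the range and a median of 12.04. The insulin-responsive glucose transporter SLC2A4 was 8.72, brighter than SLC2A1 at 6.20. CPT1B, the muscle enzyme that admits fatty acids to mitochondria, was 10.27. Of the receptors that regulate these genes, PPARD was 6.36, PPARA 6.14 and PPARG 4.45, all below the range.

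Oxidative phosphorylation had all 76 measured genes above the range. The medians of complexes I to V were 11.97, 12.05, 12.79, 12.87 and 12.99, with 37, 4, 9, 11 and 15 measured genes. The tricarboxylic acid cycle had 15 of 15 above, with a median of 11.81, and the proteasome 26 of 26, with 10.43. Of 27 measured cell cycle genes 3 were above the range, namely CCND2 at 9.61 ± 0.33, PCNA at 9.57 ± 0.16 and MCM7 at 8.51 ± 0.20.

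Structural contact and signalling genes were also measured. Of the intercalated disc list, which joins myocytes end to end, 6 of 8 were above the range, with PKP2, a desmosomal plakophilin, at 11.87 ± 0.09 and CDH2, N-cadherin, at 11.58 ± 0.34. The integrin beta chains, receptors for matrix, were led by ITGB5 at 13.50 and ITGB1 at 11.92, and the alpha chains by ITGA7 at 9.94 and ITGAV at 8.07. ITGB5 had a second probe set at 9.08, so its lead over ITGB1 rests on 1 probe set. Of the potassium channel genes, KCNE1, a channel subunit, read 11.04, 9.73, 10.94, 10.18 and 10.77 in calves 176, 177, 180, 181 and 195, and KCNJ8, an ATP-sensitive channel, 10.52, 9.60, 10.88, 9.87 and 10.60. Both were lowest in calf 177.

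Cardiac transcription factors spanned a wide range of signal. GATA6 was 11.05, MEF2A 9.97, GATA4 9.67, HAND1 7.16, SRF 6.97 and MEF2C 5.76. Of growth factors that act on vessels, VEGFB was 10.84 and VEGFA, a target of hypoxia-inducible factors, read 9.90, 10.29, 10.61, 10.38 and 10.52 (10.34 ± 0.27). Calf 176 was the lowest for VEGFA. The list of such targets had 16 of 20 measured genes above the range and a median of 10.13 in these normoxic calves. It holds glycolytic genes such as ALDOA at 12.92 ± 0.20 and PGK1 at 12.13 ± 0.20, and the variable DDIT4, an inhibitor of mTOR signalling, at 11.35 ± 0.96.

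Some collagens and proteoglycans of the interstitium were bright and others were not. Of the fibrillar and associated collagens 5 of 9 measured were above the range, and of the basement membrane collagens 1 of 4. COL12A1 at 6.07 and COL18A1 at 6.20 were among those below it. The small leucine-rich proteoglycans had 5 of 7 above. COL3A1, the fibrillar collagen of compliant tissue, measured 12.80, 13.25, 12.28, 12.81 and 12.63 in calves 176, 177, 180, 181 and 195 (12.75 ± 0.35). COL1A2 was 11.87 and COL1A1, the other type I chain, 9.70 ± 0.46, with its second probe set at 3.07. Calf 177 was highest and calf 180 lowest for COL3A1, and the same held for COL1A1 at 10.37 and 9.11. COL4A1 of basement membrane was 11.89 and LAMC1, a laminin chain, 12.07. DCN, decorin, was 11.91 ± 0.23, with LUM at 9.34 and BGN at 8.23. TIMP2, an inhibitor of matrix proteases, was 9.95, and MMP2, a gelatinase, 8.27. The extracellular matrix list had 30 of 43 genes above the range and a median SD of 0.35, above the 0.205 of all genes above the range.

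Marker genes of the cell types in a ventricle were brightest for myocytes. The ventricular myocyte list had 8 of 8 measured genes above the range and a median of 13.56. Fibroblast markers had 11 of 13 above and a median of 9.70, endothelial markers 7 of 11 and 8.22, and smooth muscle and pericyte markers 6 of 11 and 8.09. Markers of skeletal muscle had 0 of 8 above the range under their listed symbols. MYLPF of that list was not counted, because the platform carries it as MYL11, which read 8.69 ± 0.52, above the range. The 2 probe sets of MYL11 differed by 5.19. T lymphocytes had 0 of 12 above the range, B lymphocytes and plasma cells 0 of 7, erythroid cells 0 of 8 and mesothelium 0 of 6. Macrophage markers had 2 of 9, C1QA at 9.73 ± 0.46 and C1QB at 8.54 ± 0.44, subunits of complement C1q. The atrial list had 1 of 5, NPPA. The labelled tissue, ventricle, matched these markers apart from MYL11, although the levels do not measure shares of cells.

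**Figure D3:**
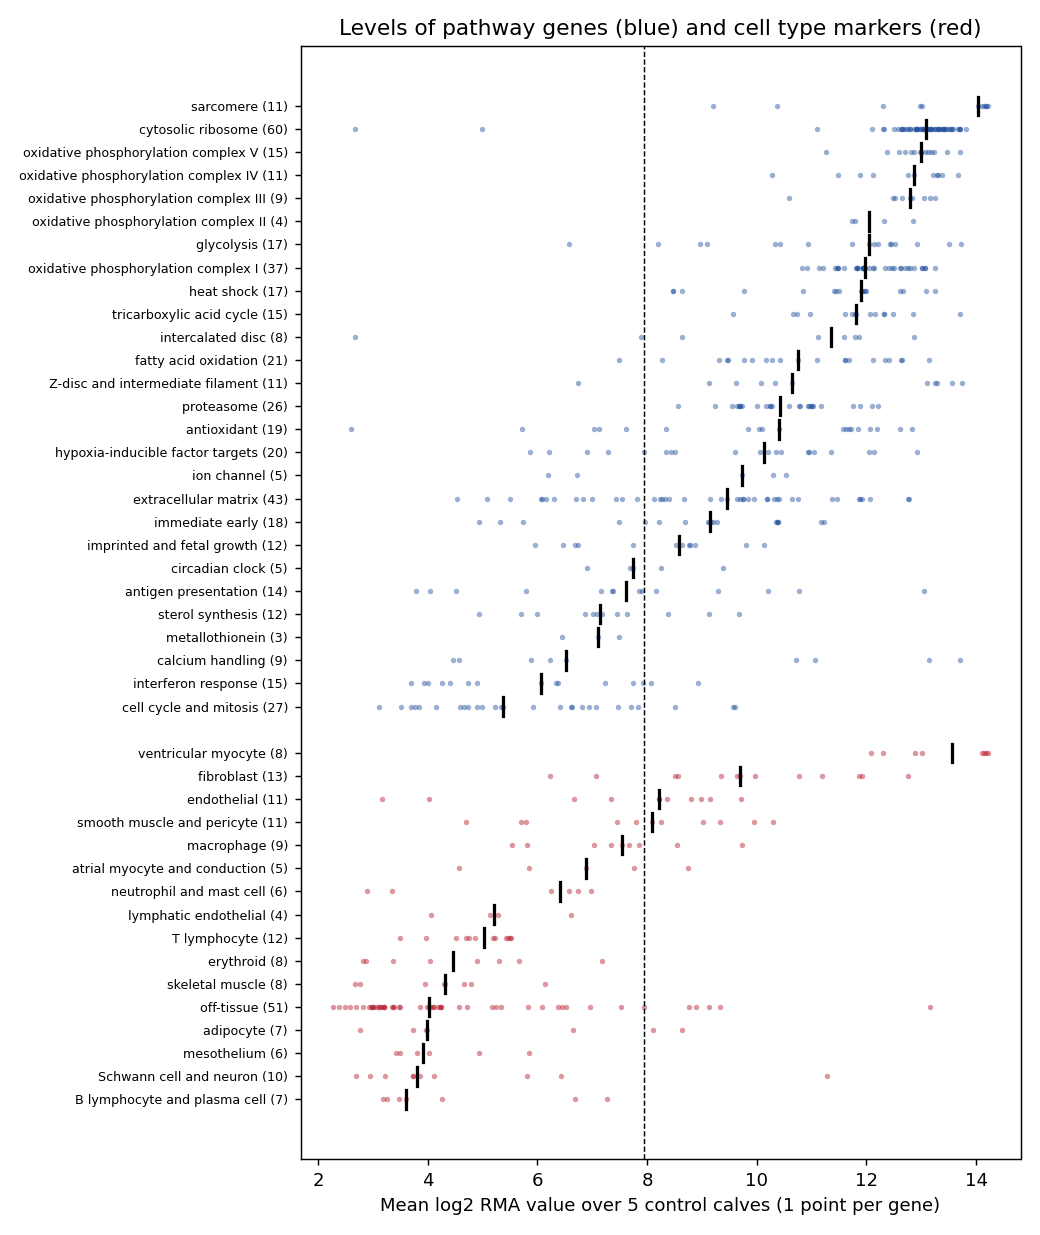
Level of each pathway and cell type list in the control calves, with 1 point per measured gene at its mean log2 signal, a black bar at the list's median, a dashed line at the off-tissue bound of 7.94, and the number of measured genes in brackets (pathways blue, markers red). Sarcomere genes have a median of 14.04, fibroblast markers 9.70 and T lymphocyte markers 5.02.

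Most genes differed little between calves. The median SD was 0.205 for the 3340 genes above the range, the 90th percentile 0.398 and the 99th 0.825. An SD over 0.5 was reached by 170, 5.09%, and an SD over 1 by 22. The first count was 298 when probe sets of a gene were averaged, 508 when dim genes were kept and 30 when every probe set of a gene with several had to pass, among 73 such genes. The SD fell with level at the top of the scale: its median was 0.224 for genes from 8 to 10 and 0.0811 for the 95 genes at 13 and above. The steadiest genes above the range were IARS2, the mitochondrial isoleucine-tRNA ligase, at 10.09 ± 0.009, TNNI3, and ATP5IF1, the inhibitor of ATP synthase, at 13.50 ± 0.024.

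**Figure D4:**
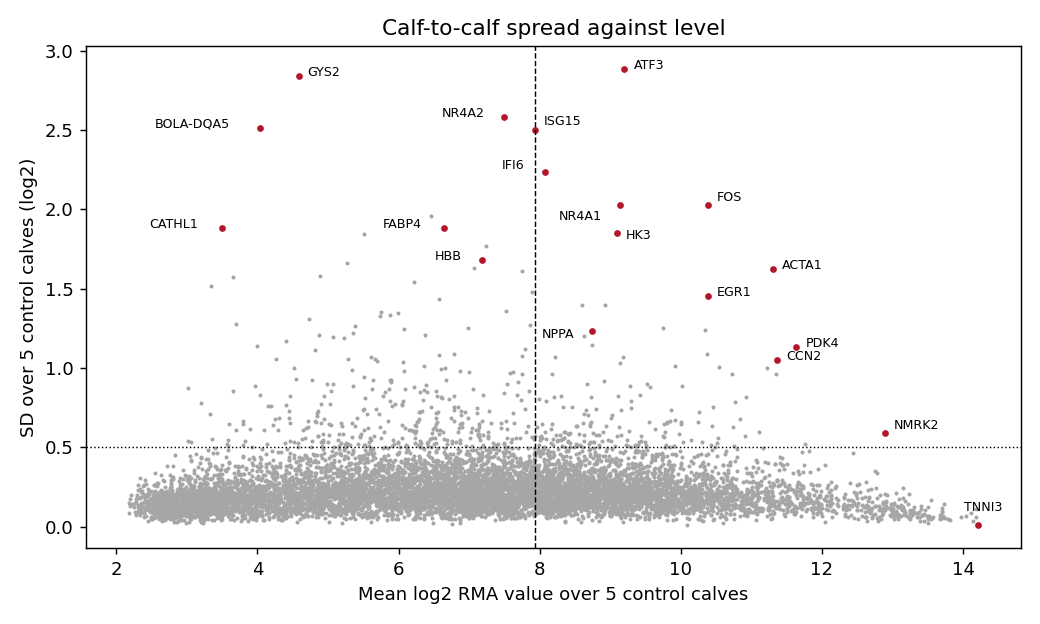
SD over the 5 control calves (y axis, log2) against mean log2 signal (x axis) for each gene, with selected genes labelled, a dotted line at an SD of 0.5 and a dashed line at the off-tissue bound of 7.94. Immediate early genes such as ATF3 (SD 2.89) and interferon genes such as IFI6 (SD 2.23) lie far above the median of 0.205.

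Immediate early genes, which cells switch on within minutes of a stimulus, varied strongly between calves. Of 18 measured members 14 had an SD over 0.5, and their median SD was 1.04, second to the 1.21 of the interferon response list. ATF3, a stress-induced transcription factor, measured 6.75, 10.18, 5.69, 10.77 and 12.61 in calves 176, 177, 180, 181 and 195 (9.20 ± 2.89). FOS, a subunit of the AP-1 factor, measured 7.32, 11.10, 9.41, 11.79 and 12.30 (10.39 ± 2.03), and its second probe set 5.11, 8.43, 6.37, 9.34 and 10.35. Both genes were low in calves 176 and 180 and highest in calf 195.

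The nuclear receptor NR4A1 read 6.61, 10.24, 7.37, 10.16 and 11.29, and EGR1, a zinc finger factor, 8.99, 10.23, 8.94, 11.78 and 11.96. DUSP1, a phosphatase of MAP kinases, read 9.12, 10.61, 9.40, 11.70 and 11.04. Calves 176 and 180 held the lowest pair of values for each. The mean of the list was 7.47, 9.08, 7.86, 9.58 and 9.93, and 13 of 18 members were lowest in calf 176 and 11 highest in calf 195. Of the 3340 genes above the range, 17.0% were lowest in calf 176 and 22.4% highest in calf 195. FOSL2, a relative of FOS in the same list, had an SD of 0.13, but at 5.31 it was not above the off-tissue range.

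Some of the 20 most variable genes lay outside that list. CCN2, a connective tissue growth factor, measured 10.78, 11.96, 9.97, 11.41 and 12.69. THBS1, thrombospondin, measured 9.22, 9.94, 7.88, 11.01 and 10.71, but its second probe set was flat, between 8.67 and 8.90. The third brightest of its 6 probe sets read 5.76, 6.65, 4.73, 7.87 and 7.64. That probe set and the dimmest kept the calf order of the brightest, while the rest did not. PDK4, which inhibits pyruvate dehydrogenase, measured 9.79, 12.21, 11.32, 12.54 and 12.33 (11.64 ± 1.13). Calf 176 or 180 was lowest on the brightest probe set of all 3. The extracellular matrix list, which holds CCN2 and THBS1, did not share this order, with means of 9.06, 9.27, 8.88, 9.08 and 8.89. The control probe sets for RNA integrity moved too: the 3′ minus 5′ difference for actin was 3.25, 4.35, 2.81, 3.63 and 3.32, and for GAPDH 0.21, 0.60, 0.07, 0.40 and 0.36, in the same order of calves. For the elongation factor control it was -1.84, -1.55, -1.66, -1.59 and -1.56. Calves 176 and 180 were lowest and calf 177 highest for each of these controls. The part of RNA integrity in these results was not tested.

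Interferon response genes were mostly dim, with 2 of 15 above the off-tissue range in the mean over calves, and were brightest in a single calf. All 15 measured genes of the list were highest in calf 180, and the list mean was 5.57, 5.74, 7.91, 5.22 and 5.08 in calves 176, 177, 180, 181 and 195. ISG15, a ubiquitin-like protein, read 7.31, 7.70, 12.24, 6.08 and 6.34 (7.93 ± 2.50). IFI6, an interferon-induced mitochondrial protein, read 7.44, 7.64, 11.96, 7.05 and 6.29 (8.08 ± 2.23). MX1, an antiviral GTPase, read 6.54, 7.48, 10.20, 6.10 and 5.86. Calf 180 stood apart for each, and the other 4 lay lower. The antigen presentation list had 11 of 14 members highest in calf 180, where 19.8% of all genes above the range were highest. OAS1X of the interferon list, which was not above the off-tissue range, had an SD of 0.07, so not every member of that list varied in signal.

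**Figure D5:**
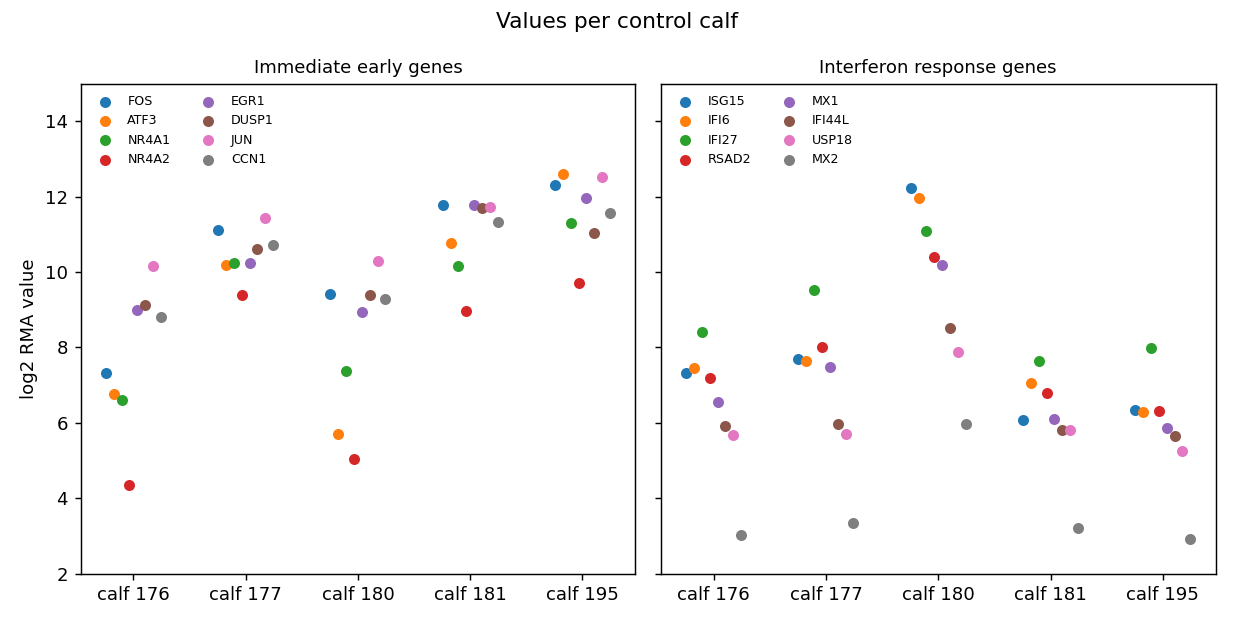
Log2 signal (y axis) in each of the 5 control calves (x axis) for 8 immediate early genes (left) and 8 interferon response genes (right), 1 point per gene and calf. ATF3 is 12.61 in calf 195 and 5.69 in calf 180, and ISG15 is 12.24 in calf 180 and at most 7.70 in the others.

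Other lists had a calf that led more mildly. Complex I genes were highest in calf 176 in 30 of 37 and proteasome genes in 20 of 26, against 33.7% of all genes above the range. The mean of complex I was 12.27 in calf 176 and 12.04 to 12.12 in the others. Ribosomal genes were lowest in calf 195 in 47 of 60, against 23.0% of all genes above the range. Heat shock genes were highest in calf 195 in 12 of 17, against 22.4% of all genes above the range. Among them were DNAJB1, a co-chaperone, at 7.89, 7.79, 8.09, 8.72 and 10.69, and HSPA1A, the inducible chaperone, at 10.27, 10.81, 10.31, 10.86 and 11.95. The HSPA1A probe sets with means of 10.84, 10.56, 9.54 and 5.84 were highest in calf 195. The one with a mean of 9.35 read 9.74, 8.94, 9.71, 9.33 and 9.04, highest in calf 176, and the one at 4.17 was highest in calf 180. Macrophage markers were highest in calf 181 in 8 of 9 and lowest in calf 195 in 7, against 11.1% and 23.0% of all genes above the range.

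Some contractile genes of smooth muscle were highest in calf 177. ACTA2 measured 8.40, 10.18, 8.65, 8.98 and 8.88, and MYH11 7.23, 9.39, 7.89, 8.08 and 7.86. Both were highest in calf 177, as were 6 of 11 markers of smooth muscle and pericytes, whose mean was 7.75, 8.20, 7.67, 7.67 and 7.98. Of the 3340 genes above the range 435 were highest in that calf. CNN1, calponin, did not follow, with 8.41, 8.06, 6.28, 7.08 and 9.13. The part of smooth muscle content in the ACTA2 values was not tested.

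A second probe set was available for 73 of the 170 variable genes. It was highest in the same calf for 54 of them, 74.0%, and lowest in the same calf for 40, 54.8%. For the 1033 genes above the range with a lower SD and several probe sets, the shares were 43.5% and 41.4%. HK3 and EPHX1 had only 1 probe set each, so no second could be compared. HK3, a hexokinase, is a case with a single low calf, at 9.92, 5.83, 9.85, 9.51 and 10.35. EPHX1, an epoxide hydrolase, was also lowest in calf 177, at 7.40, against 9.0 or more in the other 4. Calf 177, which was lowest for ACTA1 as well, had the largest 3′ minus 5′ differences of the RNA integrity controls. Their part in these low values was not tested.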

How the data were processed

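Right ventricles of 5 control calves were measured on Affymetrix Bovine GeneChip arrays, 1 per calf. The values are log2 expression levels that the authors obtained with RMA, per the submitters' processing notes. For its software, version and probe set definitions there was no entry in the labels. RMA pools information across arrays, and differences near the top of its scale can be compressed. The deposited tables, 2 in number, differed by at most 0. Of 24128 probe sets 112 were Affymetrix controls and 24016 remained, of which 13292 had 1 platform symbol, 86 several and 10638 none; 13263 matched an Entrez identifier of ARS-UCD2.0. No build is named, so no coordinates are given. The number of calves limits the precision.

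A gene was represented by the probe set with the highest control mean, which favours genes with many probe sets. Python 3.11.15, numpy 2.4.6, pandas 2.3.3 and matplotlib 3.10.9 were used, and the code was tested on simulated data. With 1 group there was no test. Named were the 20 brightest genes, the 20 with the largest and 10 with the smallest SD above the off-tissue range, members of families, and of each list the 3 brightest and the most variable; Y-linked genes were left out. Others were chosen after their values were seen. Members and lists were chosen with earlier results of these data known. Averaging of probe sets, other bounds, centring, quantile normalization, a median-based spread and leaving out each calf were tried as alternatives.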

Additional observations from a re-analysis of the deposited data

Results flagged for a closer look

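Results are given here where 1 of the 5 calves stood apart, its distance to the nearest other calf being more than 0.71 of the whole range (Dixon's 95% critical value). Chance flags about 1 in 20 groups: 20 of 354 named genes (5.65%), 4 of 43 lists (9.30%) and 202 of 3340 genes above the off-tissue range (6.05%) met it.

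Calf 180 was high for the interferon list mean, 7.91 against 5.08 to 5.74 in the others, for ISG15 at 12.24 (others 6.08 to 7.70), IFI6 at 11.96 (6.29 to 7.64) and the class II gene BOLA-DQA5 at 8.52 (2.69 to 3.13). It was low for PDK3 at 6.17 (6.91 to 7.15) and the lymphatic chemokine CCL21 at 4.66 (5.34 to 5.60).

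Calf 195 was high for the sterol synthesis mean, 7.73 against 7.06 to 7.22, INSIG1 at 6.40 (4.35 to 4.74), COL18A1 at 6.84 (5.96 to 6.19), SLC25A4 at 13.84 (13.70 to 13.73) and ATP2B4 at 3.85 (3.37 to 3.5). It was low for PLN at 12.71 (13.18 to 13.30), C1QB at 7.78 (8.60 to 8.88), C1QC at 7.09 (7.91 to 8.20), JCHAIN at 6.78 (7.31 to 7.49), LAMA4 at 9.06 (9.16 to 9.20) and MCM7 at 8.17 (8.54 to 8.67).

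Calf 176 was high for the complex IV mean, 12.67 against 12.51 to 12.56, the T lymphocyte mean, 5.27 against 4.73 to 4.82, COX6A2 at 12.10 (11.80 to 11.86) and CD3G at 6.43 (5.18 to 5.42). Calf 177 was low for HK3 at 5.83 (9.51 to 10.35) and RPS2 at 13.75 (13.82 to 13.85), and calf 181 for CKM at 12.70 (12.90 to 12.97). Several of these gaps are small in size. The means over calves of ISG15, BOLA-DQA5, PDK3, CCL21, INSIG1, COL18A1, ATP2B4, C1QC, JCHAIN and CD3G were not above the off-tissue bound of 7.94. The same held for all 12 measured T lymphocyte genes. By that bound their mean signal cannot be told from that of off-tissue genes.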

How the results depend on the processing

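No paired analysis was possible because the calves form 1 group. Genes above the off-tissue range numbered 3340, and 5676 when the probe sets of a gene were averaged, where the bound fell to 5.64; they were 6290 and 67 with the 75th percentile and the brightest off-tissue gene as bounds. Genes with an SD over 0.5 numbered 170, and 298 with averaged probe sets, 508 with dim genes kept and 30 where every probe set had to pass, of fewer genes by construction. Leaving out each calf gave 3275 to 3431 genes above the range and 155 to 210 variable ones, and kept 55 family leaders and all 20 brightest genes. Without calf 180, 13 of the 20 most variable genes remained. With averaged probe sets 49 of 55 leaders and 14 of the 20 brightest genes remained; CKM, IDH1, PPARD, LAMC1, ITGB5 and ITGA7 no longer led. Centring and quantile normalization gave 171 and 165 variable genes, and a median-based spread 155. Without immediate early and interferon genes, an alternative chosen after seeing the data, 156 remained variable. Probe binding limits every order between genes, and 5 arrays limit every SD.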

Other observations

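Sterol synthesis genes were highest in calf 195 in 9 of 12 measured members, against 22.3% of all 9155 genes. Only 3 of the 12 were above the off-tissue range, and their median was 7.14. SQLE, squalene epoxidase, read 6.67, 6.72, 6.17, 6.86 and 7.93 in calves 176, 177, 180, 181 and 195, and HMGCS1, which makes the HMG-CoA used for cholesterol, 9.15, 9.36, 9.08, 8.62 and 9.43. Antioxidant genes were bright, with 14 of 19 above the off-tissue range, led by SOD2, the mitochondrial superoxide dismutase, at 12.83 ± 0.05. Of the imprinted and fetal growth genes 7 of 12 were above it, with the receptor IGF2R at 10.13 ± 0.22 and its ligand IGF2 at 9.80 ± 0.32. S100B, a calcium-binding protein known from glia, was the only one of 10 Schwann cell and neuron markers above it, at 11.28 ± 0.18.

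GYS2, CATHL1 and NMRK2 lie outside the naming rule and were chosen after their values were seen. GYS2, the liver glycogen synthase, read 8.06, 2.47, 2.66, 7.29 and 2.41, and CATHL1, a cathelicidin, 2.78, 6.86, 2.53, 2.64 and 2.67. NMRK2, a muscle nicotinamide riboside kinase, varied at high signal, at 13.33, 12.98, 12.12, 12.48 and 13.56. Of genes within the rule, FABP4, the adipocyte fatty acid-binding protein, read 4.87, 5.93, 5.46, 7.39 and 9.58, and HBB, beta globin, 8.40, 7.02, 4.34, 7.78 and 8.35, although the other HBB probe sets averaged 2.32 to 4.26.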
